A study of Mus musculus with 11 samples.

Results

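The 9 genes described here steer B cells into, within and out of lymphoid tissue: Ccr7, Cxcr5, Cxcr4, Ccr6, S1pr1, S1pr2, Gpr183, Klf2 and Itga4. They are 9 of the 31444 gene names on the array. They were chosen by name, and every non-control array probe that carried one of these names was taken, which gave 10 probes of 39383 with a usable spot on all arrays, 2 of them for Itga4. Their RNA was measured in 11 lymph node lymphomas, of which 4 were plasma cell lymphomas, called PCL here, 3 were mantle cell lymphomas (MCL), and 4 were lymphomas of Burkitt type (BL). Every tumour had a one-colour array of its own. All 3 types arose in Black 6 mice of the genotype c-myc-3'RR/p53+/-, in which a c-myc transgene is under the 3' regulatory region that normally serves the immunoglobulin heavy chain genes and p53 is heterozygous. The labels give no ages, treatments or times and do not say whether tumours came from separate mice, so p-values speak only of the spread among these samples, part of which may be technical. No group without the transgene was analysed here, and the transgene's regulatory region is one that is active in B cells.

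B cells enter lymph nodes through specialised venules and then follow chemoattractant gradients. CCR7 reads the T zone chemokines, CXCR5 the follicle chemokine CXCL13, CXCR4 the chemokine CXCL12 of bone marrow and of the germinal centre dark zone, and CCR6 the chemokine CCL20. GPR183, also called EBI2, reads oxysterols at the outer follicle, S1PR1 draws cells out towards the sphingosine 1-phosphate of blood and lymph, and S1PR2 holds germinal centre B cells in place. The transcription factor KLF2 is known in T cells to activate S1pr1, and the integrin chain encoded by Itga4 binds VCAM-1 or MAdCAM-1, depending on its partner chain.

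The measurements rest on 60-base probes. The 5 probes behind the results described most closely are shown by their first 30 bases, 5′ to 3′ and all in lower case, with the place in mouse build mm9 that the files give for the whole probe. The pair for Itga4 is shown because its probes lie far apart in the transcript, from bases 2292 and 9754, and the first of them spans 1131 genomic bases and so crosses an intron.
Ccr7, chr11:99005551-99005610, minus strand: cagccactgatacctttcctcatgttctgc
Cxcr5, chr9:44320071-44320130, minus strand: gggaaaccaatgctatagcttcagagactg
S1pr1, chr3:115414020-115414079, minus strand: aagatgaaaatgtgttccttttttgtcaca
Itga4, chr2:79153985-79155115, plus strand: taagatcttagacctggaagagaaacaaat
Itga4, chr2:79173193-79173252, plus strand: gtgtgtggaatgcattataaagatctaaca

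Values are log2 signals relative to the 75th percentile of the array, so 0 is the 75th percentile itself and 1 unit is a 2-fold step. The share of spots well above background ran from 55.5% to 62.8% over the arrays, and precision is limited by how few arrays there are. Each type occupied 1 slide, so type and slide cannot be told apart in any comparison below. All 11 B cell markers were well above background in all 11 tumours. Their signals, in multiples of the 75th percentile, summed to 155 to 242 in PCL, 176 to 216 in MCL and 244 to 266 in BL. The sum was lowest in PCL1. Of these 11 markers, 7 had a higher mean in PCL than in MCL and 3 than in BL. Only Blk was called, at -1.26 for PCL minus MCL (limma, adjusted p = 0.0394). Ms4a1 averaged 3.59 in PCL, 5.13 in MCL and 5.12 in BL, and no difference passed. The plasma cell surface marker Sdc1 averaged -1.34 ± 1.31 in PCL (SD, n = 4), -3.38 ± 0.83 in MCL (SD, n = 3) and -4.38 ± 0.92 in BL (SD, n = 4). In the limma fit described below the F test called it (adjusted p = 0.0473), but neither PCL difference passed (adjusted p = 0.125 and 0.0728). Of 8 plasma cell markers, 5 had a higher mean in PCL than in MCL and 7 than in BL (9692 and 11848 of 20181 over all genes). Derl3, Xbp1 and Irf4 were not higher in PCL than in MCL. PCL1 was lowest of the PCL tumours for Sdc1, at -3.26, and for the summed macrophage marker signal. That sum was 2.33 (in multiples of the 75th percentile) against 10.5 to 26.5 in PCL2 to PCL4. The plasma cell markers did not all place PCL1 alike. It was also lowest of the PCL tumours for Xbp1, Irf4 and Mzb1. For Prdm1, Derl3 and Tnfrsf17 it was the highest, and for Jchain it lay between the others. Results that rest on PCL1 are therefore also given without it. In such bulk samples, fewer cells of a type and less RNA per cell cannot be told apart.

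None of the 9 genes was called in any comparison. In one limma fit over 20181 genes, with Benjamini-Hochberg adjustment and a threshold of 0.05, 0 of 9 differed among the 3 types by the moderated F test (adjusted p from 0.0646 to 0.963), where 8.43% of all genes did. It called 0 of 9 between PCL and MCL (background 6.94%), 0 of 9 between PCL and BL (background 0.659%) and 0 of 9 between MCL and BL (background 6.64%). At an unadjusted p under 0.05 the counts were 1, 2 and 1 of 9, where 24.4%, 17.6% and 18.5% of all genes passed. The median difference over the 9 genes was 0.15 for PCL minus MCL (-0.03 over all genes), 0.60 for PCL minus BL (0.09 over all genes) and 0.38 for MCL minus BL (0.06 over all genes). The genes were chosen with earlier results of these data known, so these counts are descriptions of 9 selected genes.

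**Figure D1:**
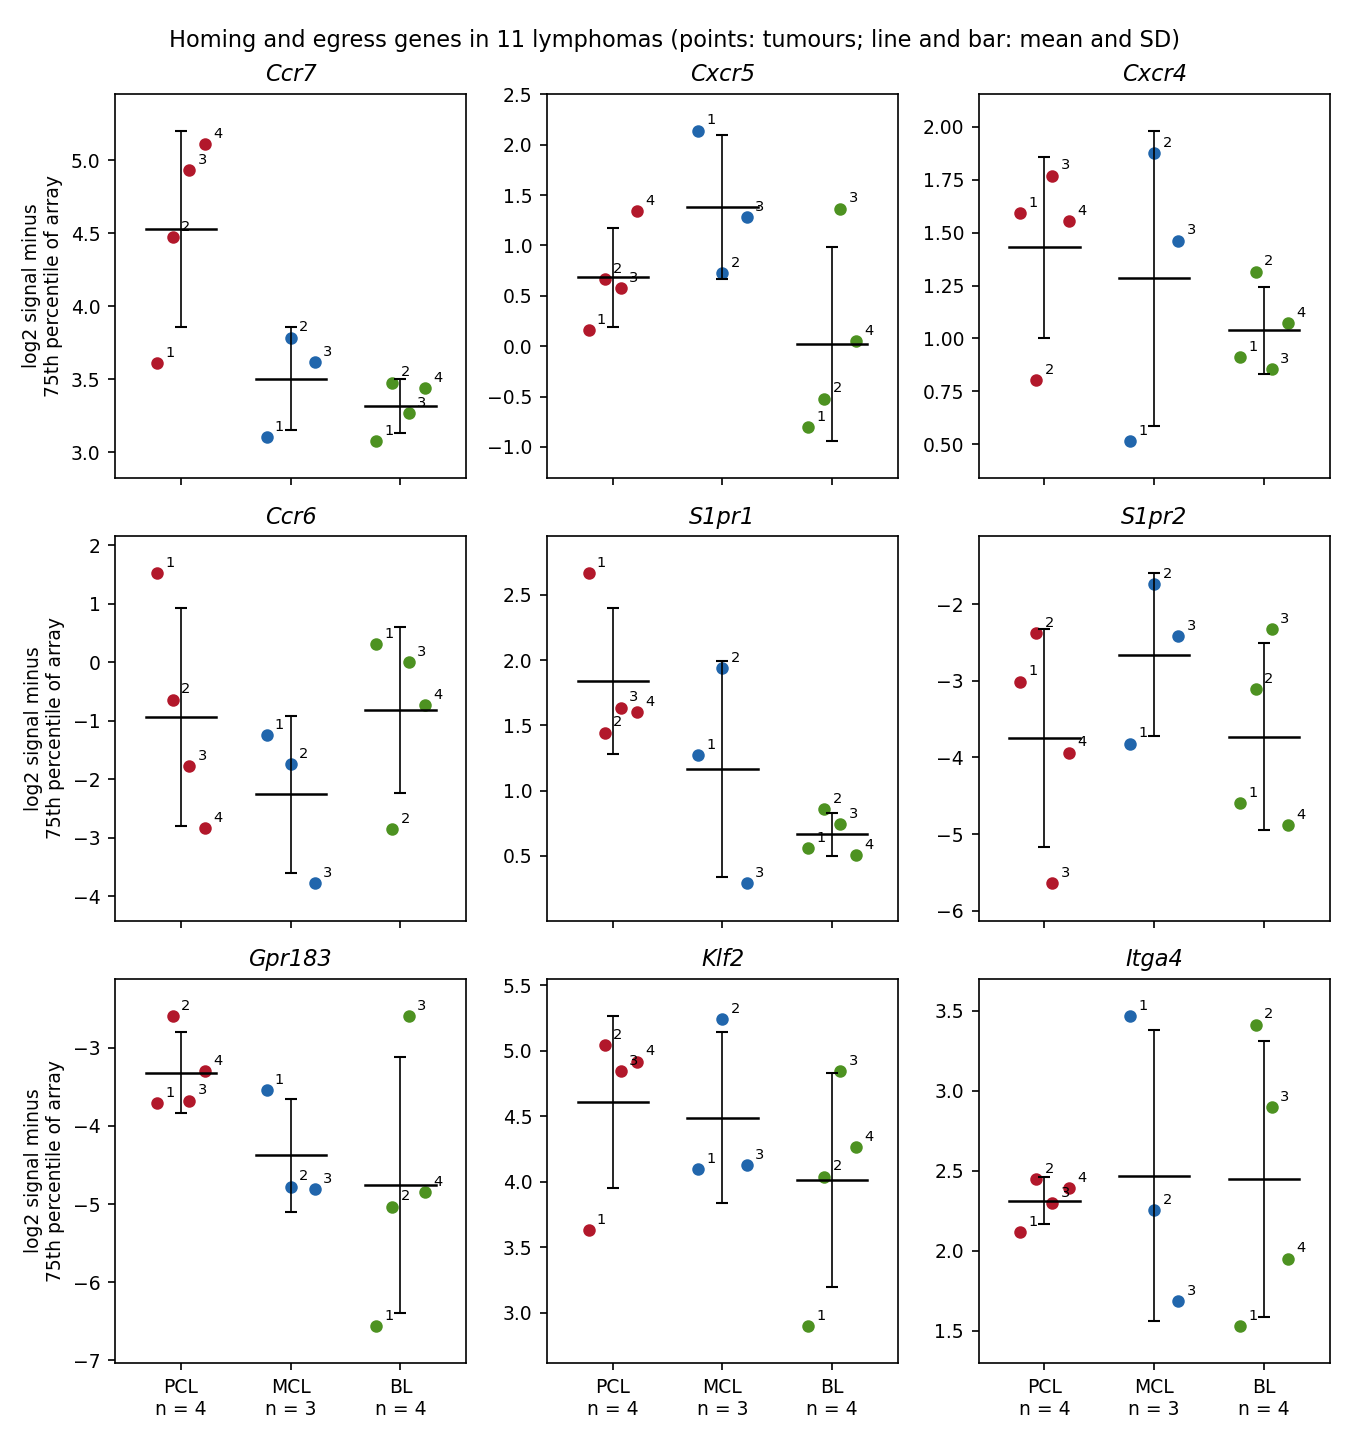
Log2 signal relative to the 75th percentile of the array (y axis, own scale for each gene) in PCL, MCL and BL tumours (x axis), with points numbered by tumour and lines and bars for mean and SD. PCL and BL tumours do not overlap for Ccr7 and S1pr1, PCL1 lies apart for S1pr1 and Klf2, and the Ccr6 points of every type span at least 2.53 units.

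Ccr7, the receptor for CCL19 and CCL21, was the gene nearest to a called difference. Its log2 signals were 3.61, 4.47, 4.94 and 5.11 in PCL1 to PCL4, 3.1, 3.78 and 3.62 in MCL1 to MCL3, and 3.08, 3.48, 3.27 and 3.44 in BL1 to BL4. All 4 PCL tumours lay above all 4 BL tumours, while PCL1 lay below MCL2 and MCL3. Ccr7 averaged 4.53 ± 0.67 in PCL (SD, n = 4), 3.50 ± 0.35 in MCL (SD, n = 3) and 3.31 ± 0.18 in BL (SD, n = 4). The difference between PCL and BL was 1.22 ± 0.31 (SE; 2.33-fold, 95% confidence interval 1.43 to 3.78), which did not pass (limma, adjusted p = 0.101). Between PCL and MCL it was 1.03 ± 0.34 (SE; 2.04-fold, interval 1.21 to 3.45; limma, adjusted p = 0.0974). MCL and BL differed by 0.19 ± 0.34 (SE; limma, adjusted p = 0.834), with an interval from -0.57 to 0.94. Without PCL1 both PCL differences passed, at 1.53 against BL (limma, adjusted p = 0.00941) and 1.34 against MCL (adjusted p = 0.0124). With array quality weights they passed as well, at 1.42 (limma, adjusted p = 0.0127) and 1.21 (adjusted p = 0.0146). PCL1 was the lowest PCL tumour for Ccr7, so leaving it out had to widen both differences. Both settings also raised the calls over all 20181 genes. Against BL these went from 133 to 1074 without PCL1 and to 2183 with array weights. Against MCL they went from 1401 to 2463 and to 4424. Across all 21 alternative settings, which vary the processing or leave out an array, the adjusted p ran from 0.00941 to 0.256 against BL and from 0.0124 to 0.230 against MCL. T cells and activated dendritic cells also express Ccr7. The 12 T cell markers summed to 21.4 to 42.3 in PCL, 17.7 to 37.8 in MCL and 28.7 to 32.9 in BL. The lowest and highest PCL sums were those of PCL1 and PCL4, which were also lowest and highest for Ccr7. However, Cd2 made up most of both sums, at 3.70 in PCL1 and 5.02 in PCL4. Cd4, Tcf7, Il7r and Thy1 were also higher in PCL4 than in PCL1. The other T cell markers, Cd3d, Cd3e, Cd3g, Cd8a, Lck, Lat and Cd247, were lower in PCL4. Between 9 and 12 of these 12 markers were well above background on an array. The 7 dendritic cell markers, of which 4 to 6 were well above background on an array and Clec9a on none, summed to 74.6 to 98.8 in PCL, 82.4 to 102 in MCL and 71.2 to 91.1 in BL. These ranges overlap, but Siglech, at 6.13 to 6.65 over the tumours, made up most of every sum. Of the other tested markers, Flt3 and Itgax averaged highest in PCL and Zbtb46 and Ccl17 in MCL. Flt3 averaged 0.53 in PCL, -2.78 in MCL and -1.18 in BL, and PCL minus MCL did not pass (limma, adjusted p = 0.0550). The only dendritic cell marker called was Zbtb46, higher in MCL than in BL by 0.84 (limma, adjusted p = 0.0292). Cd4 was the only T cell marker called. It had -0.78 for PCL minus MCL and 0.96 for MCL minus BL (limma, adjusted p = 0.0368 and 0.0142). The neutrophil markers summed to 0.897 in PCL1 against 5.91 to 22.7 in PCL2 to PCL4. PCL1 was also lowest in PCL for the summed macrophage markers and for Ccr7, although Marco was lower in PCL3 (-0.51) than in PCL1 (-0.44). Among 12 tested macrophage markers, Cd14 and Msr1 were called higher in PCL than in MCL (limma, adjusted p = 0.04997 and 0.0314; background 2.13%). Of all 13 macrophage markers, 12 to 13 were well above background in PCL tumours, 8 to 11 in MCL and 11 to 12 in BL. Their sums were 2.33 to 26.5 in PCL, 1.68 to 4.62 in MCL and 2.75 to 7.97 in BL, and the part of these cell types in the Ccr7 signal was not tested.

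Cxcr5, the receptor that brings B cells into follicles, had its highest type mean in MCL. The log2 signals were 0.16, 0.66, 0.58 and 1.34 in PCL1 to PCL4, 2.14, 0.73 and 1.28 in MCL1 to MCL3, and -0.80, -0.52, 1.37 and 0.05 in BL1 to BL4. BL3 lay above MCL2 and MCL3, whereas the other BL tumours lay below all MCL tumours. The means were 0.68 ± 0.49 in PCL (SD, n = 4), 1.38 ± 0.71 in MCL (SD, n = 3) and 0.02 ± 0.96 in BL (SD, n = 4). MCL exceeded BL by 1.36 ± 0.53 (SE; 2.56-fold, interval 1.13 to 5.80), short of the threshold (limma, adjusted p = 0.193). Without BL3 the difference was 1.81 and passed (limma, adjusted p = 0.039). It did not pass in the other 20 of 21 alternatives, where the highest adjusted p was 0.519. PCL differed from MCL by -0.70 ± 0.53 (SE; limma, adjusted p = 0.453) and from BL by 0.66 ± 0.49 (SE; limma, adjusted p = 0.523), so neither pair of neighbouring means in this order differed by an amount that passed.

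Cxcr4, which retains B cells in CXCL12-rich niches, varied least of the 9 genes over the 11 tumours, from 0.52 to 1.88. It measured 1.59, 0.80, 1.77 and 1.56 in PCL1 to PCL4, 0.52, 1.88 and 1.46 in MCL1 to MCL3, and 0.91, 1.32, 0.85 and 1.07 in BL1 to BL4. The MCL tumours held both the lowest and the highest value. The type means, 1.43 ± 0.43 in PCL (SD, n = 4), 1.28 ± 0.70 in MCL (SD, n = 3) and 1.04 ± 0.21 in BL (SD, n = 4), differed by at most 0.39 (PCL minus BL; limma, adjusted p = 0.551). The interval of that difference was -0.30 to 1.08, which leaves room for a change of up to 2.12-fold.

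Ccr6, the CCL20 receptor, differed widely between tumours of the same type. Its log2 signals were 1.52, -0.64, -1.77 and -2.83 in PCL1 to PCL4, -1.25, -1.74 and -3.78 in MCL1 to MCL3, and 0.31, -2.85, 0.01 and -0.74 in BL1 to BL4. The span over all tumours was 39.4-fold, and within PCL alone it was 20.4-fold, between PCL1 and PCL4. Its residual SD within types was 1.59, larger than that of 94.5% of all genes, for which the median was 0.42. The means were -0.93 ± 1.86 in PCL (SD, n = 4), -2.26 ± 1.34 in MCL (SD, n = 3) and -0.81 ± 1.43 in BL (SD, n = 4). With this spread the interval for PCL minus MCL ran from -1.10 to 3.75 around 1.33 (limma, adjusted p = 0.492), and that for MCL minus BL from -3.87 to 0.99 around -1.44 (limma, adjusted p = 0.562). PCL minus BL was -0.11 (interval -2.36 to 2.13; limma, adjusted p = 0.972). Without PCL1, the highest tumour, PCL minus MCL was 0.51 (limma, adjusted p = 0.765) and PCL minus BL was -0.93 (adjusted p = 0.590).

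S1pr1, the receptor for egress, was the other gene for which PCL and BL tumours did not overlap. Such separation held for 2 of 9 genes, against a background of 11% of all genes in that comparison, and for 0 of 9 between PCL and MCL (22.9%) and between MCL and BL (17.7%). The log2 signals of S1pr1 were 2.66, 1.44, 1.63 and 1.60 in PCL1 to PCL4, 1.27, 1.94 and 0.29 in MCL1 to MCL3, and 0.56, 0.86, 0.75 and 0.51 in BL1 to BL4. The BL tumours lay within 0.35 of each other, and the MCL tumours spanned the range of both other types except PCL1. The means were 1.84 ± 0.56 in PCL (SD, n = 4), 1.17 ± 0.83 in MCL (SD, n = 3) and 0.67 ± 0.16 in BL (SD, n = 4). PCL minus BL was 1.17 ± 0.36 (SE; 2.25-fold, interval 1.28 to 3.95), which did not pass (limma, adjusted p = 0.138), nor did it in any alternative (adjusted p from 0.0829 to 0.271). Without PCL1 it was 0.89 (limma, adjusted p = 0.160). PCL minus MCL was 0.67 ± 0.39 (SE; limma, adjusted p = 0.329), or 0.39 without PCL1 (adjusted p = 0.502), and MCL minus BL was 0.50 ± 0.39 (SE; limma, adjusted p = 0.582). Endothelial cells express S1pr1 strongly. Of 8 endothelial markers, Tek, Tie1, Emcn and Esam were not well above background on any array, and the list summed to 4.53 to 6.36 in PCL, 5.75 to 8.17 in MCL and 3.99 to 4.74 in BL. Kdr made up most of every sum, with means of 2.13 in PCL, 2.68 in MCL and 1.85 in BL. It was called higher in MCL than in BL (difference 0.82; limma, adjusted p = 0.0476). By contrast, Pecam1 averaged highest in PCL and Cdh5 in BL. The endothelial part of the S1pr1 signal was not tested.

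S1pr2, the receptor that confines germinal centre B cells, was dim and variable. Its log2 signals were -3.01, -2.38, -5.64 and -3.94 in PCL1 to PCL4, -3.82, -1.74 and -2.42 in MCL1 to MCL3, and -4.60, -3.11, -2.32 and -4.89 in BL1 to BL4. PCL3 was the only tumour in which it was not well above background. The means were -3.74 ± 1.42 in PCL (SD, n = 4), -2.66 ± 1.06 in MCL (SD, n = 3) and -3.73 ± 1.22 in BL (SD, n = 4). PCL minus MCL was -1.08 ± 0.87 (SE; limma, adjusted p = 0.482) and MCL minus BL was 1.07 ± 0.87 (SE; limma, adjusted p = 0.597). With normexp, a model-based correction of the raw spot signal for local background, these differences were -0.21 and 0.37. PCL minus BL was -0.01, with an interval from -1.81 to 1.78 (limma, adjusted p = 0.996).

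Gpr183, the oxysterol receptor, was also dim, and its 4 BL tumours held both ends of its range. It measured -3.71, -2.59, -3.68 and -3.30 in PCL1 to PCL4, -3.54, -4.78 and -4.81 in MCL1 to MCL3, and -6.56, -5.03, -2.59 and -4.85 in BL1 to BL4. BL1, the lowest, was not well above background, and BL3, the highest, lay beside PCL2. Gpr183 averaged -3.32 ± 0.52 in PCL (SD, n = 4), -4.38 ± 0.73 in MCL (SD, n = 3) and -4.76 ± 1.64 in BL (SD, n = 4). The difference between PCL and BL was 1.44 ± 0.71 (SE; limma, adjusted p = 0.331). The authors' table gave 0.62 for it, and normexp correction 0.69. It was 0.84 without BL1 and 2.16 without BL3 (limma, adjusted p = 0.528 and 0.106). PCL minus MCL was 1.06 ± 0.77 (SE; limma, adjusted p = 0.432) and MCL minus BL was 0.38 ± 0.77 (SE; limma, adjusted p = 0.852).

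**Figure D2:**
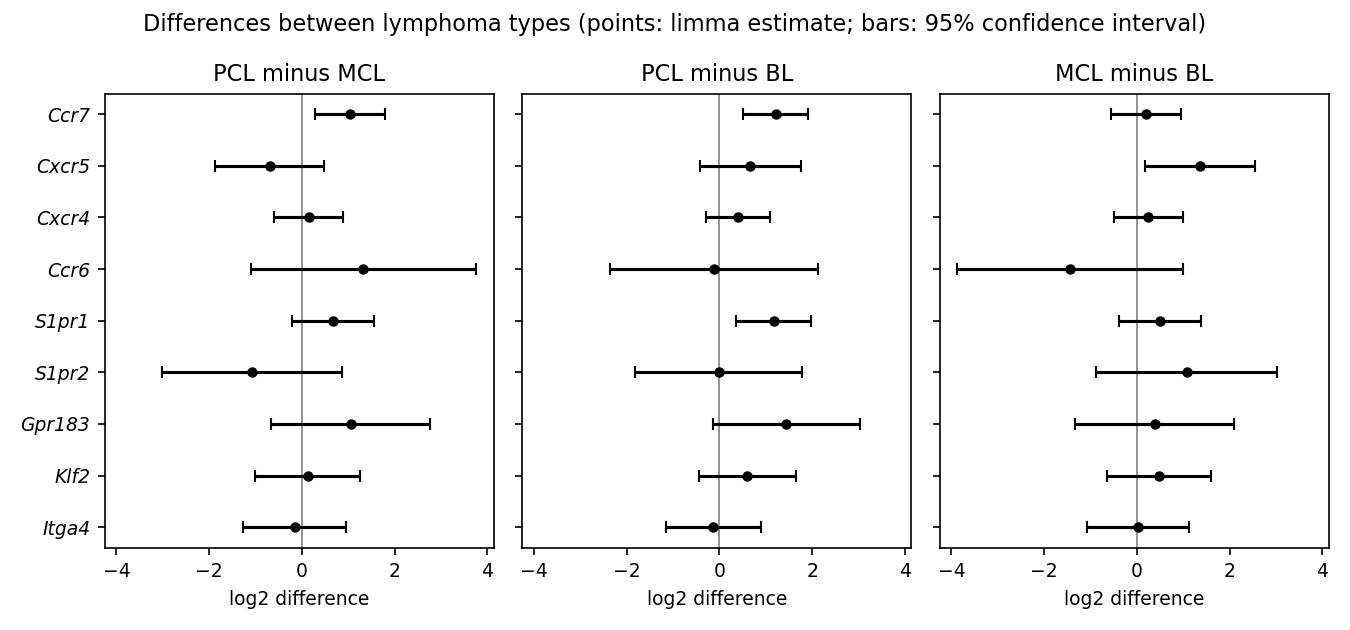
Log2 differences between lymphoma types (x axis) for the 9 genes (y axis), with points for the limma estimate and bars for its 95% confidence interval. The unadjusted intervals lie above 0 for Ccr7 in both PCL comparisons, S1pr1 against BL and Cxcr5 in MCL against BL, and those of Ccr6 and S1pr2 are the widest.

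Klf2, the transcription factor, had log2 signals of 3.63, 5.04, 4.85 and 4.91 in PCL1 to PCL4, 4.09, 5.24 and 4.13 in MCL1 to MCL3, and 2.90, 4.04, 4.84 and 4.26 in BL1 to BL4. The types overlapped throughout, with means of 4.61 ± 0.66 in PCL (SD, n = 4), 4.49 ± 0.65 in MCL (SD, n = 3) and 4.01 ± 0.82 in BL (SD, n = 4). Its differences were 0.12 for PCL minus MCL, 0.60 for PCL minus BL and 0.48 for MCL minus BL (limma, adjusted p = 0.909, 0.550 and 0.697). Without PCL1 the PCL differences were 0.45 from MCL and 0.92 from BL (limma, adjusted p = 0.579 and 0.274). In PCL1, Klf2 was the lowest of the PCL tumours while S1pr1 was the highest of all 11.

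No difference in Itga4 between types passed the test. By the probe from base 9754, which stands for the gene in the fit, it measured 2.12, 2.45, 2.30 and 2.39 in PCL1 to PCL4, 3.47, 2.26 and 1.68 in MCL1 to MCL3, and 1.53, 3.41, 2.90 and 1.95 in BL1 to BL4. The PCL tumours lay within 0.33 of each other, inside the range of both other types. The means were 2.31 ± 0.15 in PCL (SD, n = 4), 2.47 ± 0.91 in MCL (SD, n = 3) and 2.45 ± 0.86 in BL (SD, n = 4), and the differences were -0.16, -0.13 and 0.02 (limma, adjusted p = 0.878, 0.921 and 0.989). Their intervals were -1.26 to 0.95, -1.16 to 0.89 and -1.08 to 1.13. The probe that crosses an intron gave -3.19, -3.21, -2.96 and -2.53 in PCL1 to PCL4, -2.23, -3.18 and -3.89 in MCL1 to MCL3, and -3.67, -1.88, -2.44 and -3.65 in BL1 to BL4. Both probes followed the same tumours, with a Pearson correlation of 0.93 over 11 tumours, and MCL1 and BL2 were the highest by both. In a fit with each probe as its own row, 0 of 10 probes were called in any comparison. The partner chains Itgb1 and Itgb7, which make the receptors for VCAM-1 and MAdCAM-1, had differences of -0.70 and -0.11 between PCL and MCL and of -0.25 and 0.70 between PCL and BL (limma, adjusted p = 0.545, 0.953, 0.878 and 0.707). MCL1, the highest tumour for Itga4, was also the highest for Itgb1 at 1.84 and for Itgb7 at 4.64.

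Across the 11 tumours the 9 genes followed each other weakly. Of their 36 pairs, 25 had a positive Pearson correlation, with a median of 0.21 and a range from -0.35 to 0.66. The highest were Gpr183 with Klf2 and Gpr183 with Cxcr5, both at 0.66, and Ccr7 with Klf2 at 0.61. BL1 was the lowest tumour for Gpr183, Klf2 and Cxcr5 alike. Klf2 and S1pr1 correlated at 0.25. Ccr6 correlated negatively with 6 of the other 8 genes, down to -0.35 with Klf2. These are descriptions over 11 arrays that share their slides by type.

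**Figure D3:**
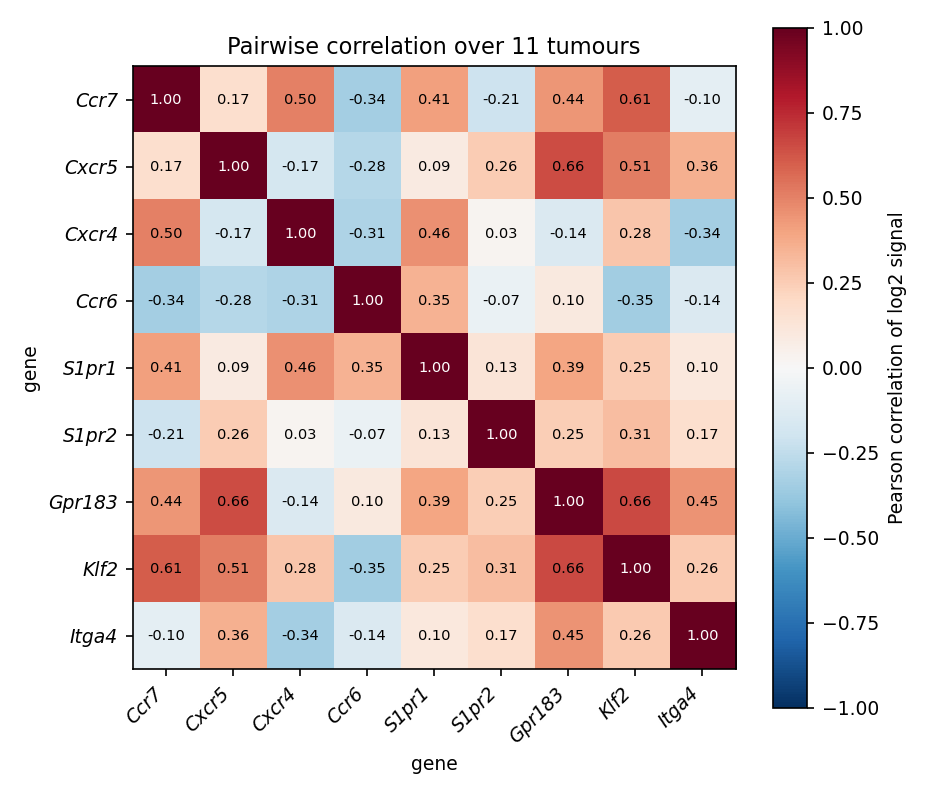
Pearson correlation of log2 signal over 11 tumours for each pair of the 9 genes (both axes list the genes, colour and number give the correlation). Gpr183, Klf2 and Cxcr5 correlate at 0.51 to 0.66, and most values for Ccr6 are below 0.

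Each gene's nearest companions were sought by Pearson correlation over the 11 tumours among 10976 named genes (10977 for S1pr2 and Gpr183) that were well above background on all arrays. The points share their slides by type, and the values carry no statement on function. Ccr7 ran closest to Cntn1 (0.98), the gene of a neural cell adhesion protein, and then to Prm1 (0.95) and Bfsp1 (0.94). S1pr1 ran closest to Mrpl30 (0.94) and Ssr4 (0.92), which encodes a subunit of the translocon-associated complex of the endoplasmic reticulum, and Klf2 to Fam174c (0.95). Those of Itga4 and Cxcr5 were Rbm25 (0.92), an RNA-binding protein gene, and Zbtb3 (0.92). The highest correlations were lower for Gpr183 (Cyrib, 0.90), Ccr6 (Rnf166, 0.85), Cxcr4 (Ftsj1, 0.84) and S1pr2 (Zfp266, 0.80).

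Beyond the 9 genes, 80 others of the same pathways were examined in 4 lists, and 68 of them were tested. The rest had no probe under their name, or none well above background on 3 or more arrays. Between PCL and MCL, 6 of the 68 were called, 4 higher and 2 lower in PCL, or 8.82% against a background of 6.94% (2.13% higher and 4.82% lower). At an unadjusted p under 0.05 it was 24 of 68, or 35.3% against 24.4%. Between PCL and BL 0 were called by limma (background 0.659%), with 13 of 68 at an unadjusted p under 0.05, or 19.1% against 17.6%. Between MCL and BL 3 were called, all higher in MCL, or 4.41% against 6.64% (6.45% higher and 0.198% lower), and 7 of 68 passed unadjusted, or 10.3% against 18.5%. The F test called 6, or 8.82% against 8.43%.

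Among ligands and the enzymes that shape their gradients, 3 of 15 were called between PCL and MCL (background 6.94%). The list's median difference was -0.14 (-0.03 over all genes). Vcam1, the ligand of the Itga4-Itgb1 integrin, had log2 signals of -2.19, 2.01, 1.48 and 1.5 in PCL1 to PCL4, -2.11, -5.06 and -3.53 in MCL1 to MCL3, and -2.21, -1.09, -0.53 and -2.52 in BL1 to BL4. It rose in PCL against MCL by 4.27 ± 1.04 (SE; limma, adjusted p = 0.0395), although PCL1 lay at the level of MCL1. Without PCL1 the difference was 5.23 (limma, adjusted p = 0.00467), while without PCL2, PCL3, PCL4, MCL2, MCL3, BL2 or BL3 it did not pass (adjusted p up to 0.128 over all alternatives). Nor did the Vcam1 difference pass with normexp correction, with dim probes kept or in a fit of these 2 types alone. The macrophage marker sums given above are low in the same tumour, PCL1, and high in PCL2 to PCL4, and their part in this rise was not tested. Hsd3b7, which degrades the oxysterol ligand of GPR183, rose in PCL, at -0.46, -0.02, -0.04 and -0.11 in PCL1 to PCL4 against -0.94, -1.55 and -1.68 in MCL1 to MCL3 (difference 1.23 ± 0.23, SE; limma, adjusted p = 0.016). Here all PCL tumours lay above all MCL tumours. The call was lost with normexp correction and without PCL2, PCL4, MCL2 or MCL3 (limma, adjusted p up to 0.0674 over all alternatives).

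Ccl19, a ligand of CCR7, was lower in PCL than in MCL, at -3.62, -3.72, -3.22 and -3.47 in PCL1 to PCL4 against -2.11, -2.54 and -2.44 in MCL1 to MCL3 (difference -1.14 ± 0.22, SE; limma, adjusted p = 0.0174). It was higher in MCL than in BL by 1.29 ± 0.22 (SE; limma, adjusted p = 0.00828), with BL1 to BL4 at -3.83, -3.99, -3.32 and -3.47. With normexp correction these differences were -0.51 and 0.68 and did not pass, and without PCL2, PCL4 or MCL1 the difference between PCL and MCL did not pass either. The other 2 Ccl19 probes gave -0.51 and -0.52 for PCL minus MCL and 0.53 and 0.93 for MCL minus BL. The first of these probes was well above background on 3 arrays only. With the mean of all Ccl19 probes neither difference passed. In a fit of MCL and BL alone, MCL minus BL did not pass. Ccl21a, Ccl21b, Ccl21c, Ccl20, Ch25h and Cyp7b1 were not among the genes tested. Cxcl12, the ligand of CXCR4, was well above background in 1 PCL, 0 MCL and 2 BL tumours. Spns2, the exporter of sphingosine 1-phosphate, had 3.24 for PCL minus MCL and did not pass (limma, adjusted p = 0.148).

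Of 15 other chemoattractant receptors, 1 was called between PCL and MCL (background 6.94%) and 2 between MCL and BL (background 6.64%). Ccr8, a receptor of skin-homing and regulatory T cells, had -5.34, -5.52, -5.61 and -5.96 in PCL1 to PCL4, -4.75, -4.41 and -4.44 in MCL1 to MCL3, and -5.66, -5.37, -5.24 and -5.79 in BL1 to BL4. It was lower in PCL than in MCL (-1.07 ± 0.21, SE; limma, adjusted p = 0.0189) and higher in MCL than in BL (0.98 ± 0.21, SE; adjusted p = 0.0206). The probe was near background, well above it in 1 PCL, 3 MCL and 3 BL tumours, and with normexp correction both differences turned, to 0.15 and -0.02. Cnr2, the cannabinoid receptor of B cells, was 2.41, 2.37 and 2.82 in MCL1 to MCL3 against 1.08, 1.31, 1.61 and 1.94 in BL1 to BL4 (difference 1.05 ± 0.23, SE; limma, adjusted p = 0.0239). The groups did not overlap, and the adjusted p ran from 0.0173 to 0.112 over the alternatives, passing in 15 of 21. Ccr3, an eosinophil receptor, was called by the F test (limma, adjusted p = 0.0427) but in none of the 3 pairwise comparisons. It measured -2.41, -2.83 and -2.82 in PCL2 to PCL4 but -5.51 in PCL1. Without PCL1 the F test gave an adjusted p of 0.000500, and leaving out any other array ended the call. At Ccr3 no MCL tumour had a signal well above background, so the PCL mean is given as at least 5.31-fold the MCL mean (group means -3.39 and -5.82). This bound allows for the undetected MCL signal but not for the spread among tumours. The difference from MCL, 2.43 ± 0.64 (SE), did not pass (limma, adjusted p = 0.0515), and PCL1 lay beside the MCL tumours (-6.00 to -5.70). BL averaged -5.86, close to MCL, yet 3 BL tumours were well above background, so detection differed between arrays at like signal. PCL minus BL was 2.47 ± 0.60 (SE) and did not pass either (limma, adjusted p = 0.0869). Without PCL1 the bound was 8.67-fold, with group means of -2.69 and -5.82.

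Of 11 other integrins and adhesion molecules 0 were called by limma in any comparison. At an unadjusted p under 0.05 the counts were 3, 4 and 0, where 24.4%, 17.6% and 18.5% of all genes passed. The largest differences were those of Itga5, a chain of the fibronectin receptor, at 2.11 for PCL minus MCL and 2.84 for PCL minus BL (limma, adjusted p = 0.162 and 0.111), and of Itgb7 at 0.81 for MCL minus BL (adjusted p = 0.706). Itga5 was well above background in 4 PCL, 2 MCL and 1 BL tumours, so its differences rest in part on signals not well above background. Of 27 regulators and signalling genes, 2 were called between PCL and MCL (background 6.94%). Both are regulators of G protein signalling that shorten the response of chemokine receptors. The list's median difference was 0.27, with 19 of 27 genes positive, where all genes had a median of -0.03 and 9692 of 20181 positive. Rgs16 had 1.63, 0.92, 2.41 and 3.31 in PCL1 to PCL4, -3.84, -2.66 and 0.19 in MCL1 to MCL3, and -2.14, 0.46, -2.67 and -1.05 in BL1 to BL4. All PCL tumours lay above all others, and the rise against MCL was 4.17 ± 1.02 (SE; limma, adjusted p = 0.0395), while the difference from BL, 3.42, did not pass (adjusted p = 0.110). Rgs1 had 1.82, 1.25, 1.76 and 0.20 in PCL1 to PCL4 and -1.24, -0.47 and -3.59 in MCL1 to MCL3, a rise of 3.02 ± 0.77 (SE; limma, adjusted p = 0.0452). Rgs1 passed in 7 of 21 alternatives (adjusted p from 0.0109 to 0.110) and, of the arrays left out singly, kept its call only without BL4. Rgs16 passed in 11 of 21 (adjusted p from 0.0252 to 0.119) and lost its call without PCL2, PCL3, PCL4, MCL1, MCL2 or BL4. Both genes also lost the call with normexp correction, with dim probes kept and in a fit of these 2 types alone. Cd69, which removes S1PR1 from the cell surface, had -1.29 for PCL minus BL and -1.53 for MCL minus BL (limma, adjusted p = 0.365 and 0.318).

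**Figure D4:**
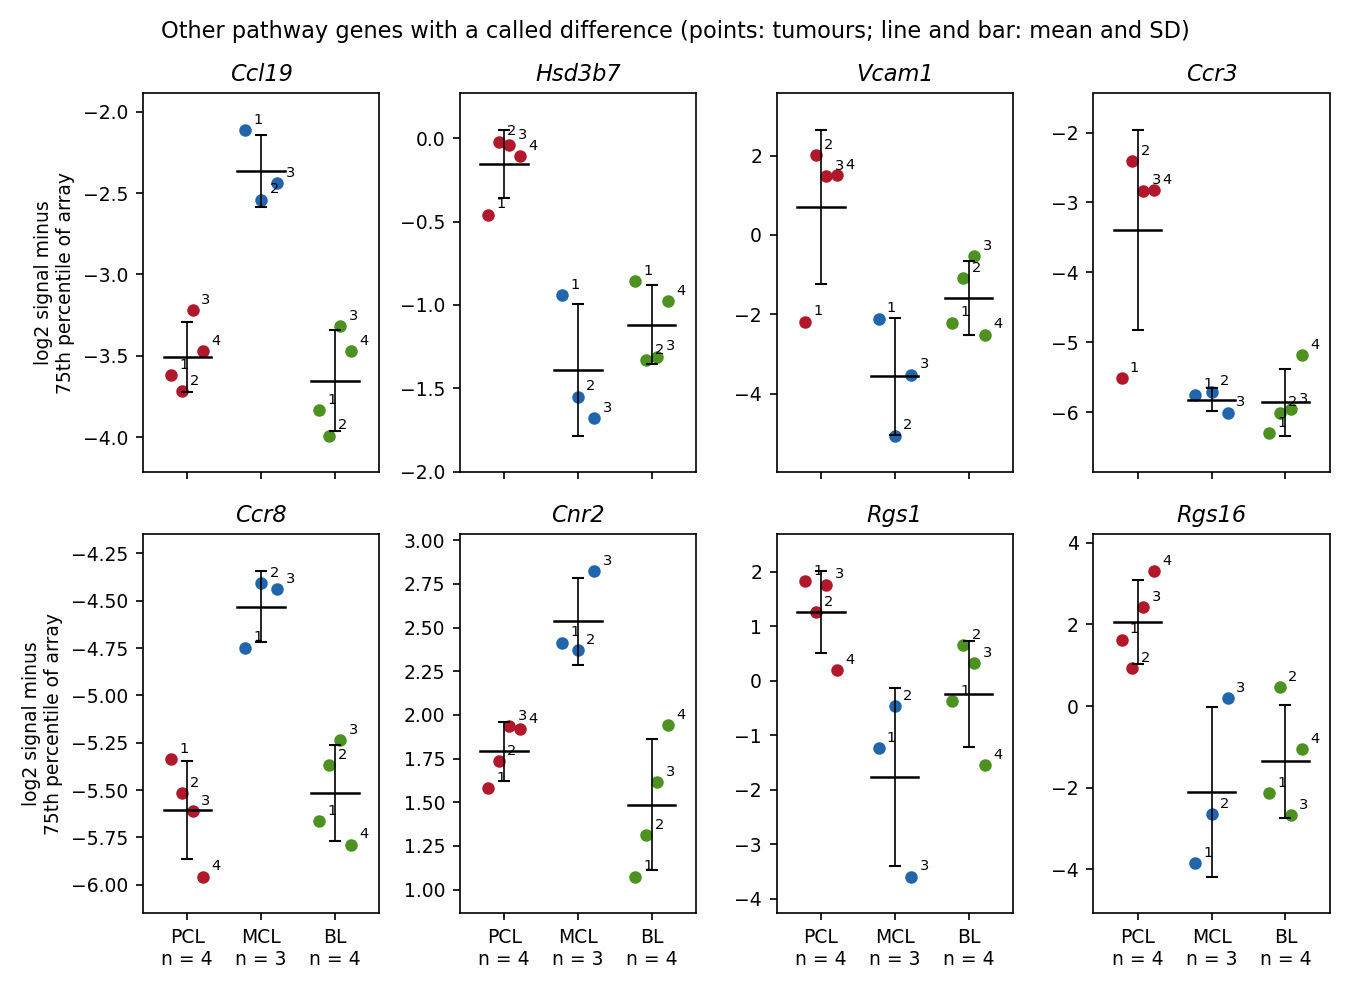
Log2 signal relative to the 75th percentile of the array (y axis, own scale for each gene) in PCL, MCL and BL tumours (x axis) for the 8 other pathway genes with a called difference; points are numbered by tumour, lines and bars are mean and SD. Rgs16 is higher in all 4 PCL tumours than in the others, Ccl19, Ccr8 and Cnr2 are highest in MCL, and PCL1 is apart from PCL2 to PCL4 for Vcam1 and Ccr3.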

How the data were processed

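RNA of 11 tumours was labelled with Cy3 and hybridised to one-colour arrays. The authors deposited scanner files in which the processed signal and the raw mean, median and background signals are intensity values, extracted by Agilent software (Feature Extraction, version 10.7.3.1, per the file headers) with spatial and multiplicative detrending on and nothing normalized between arrays. The authors also deposited a table of log2 values, whose columns share nearly one distribution (medians 7.25 to 7.26). Its making is not described in the sources used here. Probe coordinates are of build mm9, per the file headers.

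Outlier spots were dropped, spots of a probe averaged, and each array's 75th percentile subtracted from log2 of the processed signal. Probes were kept where 3 or more arrays had them well above background (25296). Gene names came from accessions and symbols (GRCm38.p6, names only). The probe with the highest mean stood for a gene (20181 genes). limma 3.58.1 in R 4.3.3 fitted a mean per type over 11 arrays, with contrasts and an F test adjusted by Benjamini-Hochberg over all genes. The code was tested on simulated data. A lower bound sets the brighter mean against, array by array, the probe's own signal or the lowest one well above background, whichever is higher. All 9 members were named. Other pathway genes were named where called, or, in lists without a call, by the largest difference per comparison. Spns2, Cd69, Itgb1, Itgb7, Cxcl12, Sdc1 and the genes without a test were named in addition, for their roles. Members and lists were chosen with earlier results of these data known. Alternatives were another background correction, normalization, value table, filter, probe rule, prior, weighting, sample set, an array position block, and each array left out.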

Additional observations from a re-analysis of the deposited data

Results flagged for a closer look

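In the groups of 4 tumours, 20 sets of values (10 probes in PCL and in BL) were screened with Dixon's test for a tumour far from the others, and 2 stood out, where chance gives about 1 in 20. Both were of PCL1. Its S1pr1 signal, 2.66, lay 0.844 of the PCL range above the nearest tumour (1.63). Its Klf2 signal, 3.63, lay 0.861 of the PCL range below the nearest (4.85). PCL1 was thus highest for S1pr1 and lowest for Klf2 among the PCL tumours.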

How the results depend on the processing

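Of 739 gene results under alternatives, 702 kept direction and side of the threshold, 7 newly passed and 30 changed sign, none of the latter past the threshold. The count of members called, 0 in every comparison, became 1 (Ccr7) with array quality weights for PCL minus MCL, PCL minus BL and the F test, and ran from 0 to 1 when single arrays were left out, also for MCL minus BL (Cxcr5, without BL3). By probe it was 0. Over all genes the count for PCL minus MCL (1401) was 197 with normexp, 697 with no filter, 4424 with array weights and 742 in a fit of these types alone. For PCL minus BL (133) it was 13 with normexp, 86 with no filter and 2183 with array weights, and its split into 92 higher and 41 lower was 56 and 41 with quantile normalization, 84 and 82 with the authors' table and 5 and 8 with normexp. For MCL minus BL (1341) it was 65 with normexp, 746 with quantile normalization, 680 with the authors' table and 291 in a fit of these types alone. For the F test (1701) it was 131 with normexp, 1050 with no filter and 4763 with array weights. Leaving out single arrays gave 333 to 2463, 5 to 1074, 687 to 1373 and 717 to 2827, with the lowest without PCL2 and the highest without PCL1 in both PCL comparisons and the F test. With array position as a replicate block the counts were 391, 64, 380 and 341 and no member was called. The block ended the calls between PCL and MCL of Hsd3b7, Vcam1, Rgs16, Rgs1 and Ccr8 (limma, adjusted p = 0.0674, 0.108, 0.107, 0.0542 and 0.0602), that of Ccr8 between MCL and BL (0.0734) and the 6 F test calls of pathway genes (0.0504 to 0.111; Ccr3 0.0786). The labels give positions only as numbers, and deviations of same-position arrays correlated at -0.05 to 0.17, over 0.1 in 3 of 10 pairs. Still, 8 of 11 arrays correlated best with one of their own position, a hint from the data and not from the design. The bound for Ccr3 without PCL1 was chosen after seeing the data.

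Sign changes were those of small differences. With array weights Cxcr4 was -0.038 and Itga4 0.21 (PCL minus MCL), and Gpr183 was -0.19 and Itga4 -0.47 (MCL minus BL). With normexp S1pr2 was 0.16 (PCL minus BL) and Gpr183 -0.26 (MCL minus BL), and Gpr183 was -0.036 with the authors' table. Itga4 (MCL minus BL) was -0.083 as the mean of its probes and -0.048 with the block. When single arrays were left out, PCL minus MCL ran from -0.24 to 0.44 for Cxcr4, -0.075 to 0.50 for Klf2 and -0.55 to 0.34 for Itga4. PCL minus BL ran from -0.93 to 0.52 for Ccr6, -0.47 to 0.62 for S1pr2 and -0.44 to 0.19 for Itga4. MCL minus BL ran from -0.049 to 0.63 for Cxcr4, -0.22 to 1.10 for Gpr183 and -0.48 to 0.41 for Itga4. The cause was not tested. S1pr2 and Gpr183 have no value when a probe must be well above background on all arrays, and signal over background limits both.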
